A study of Mus musculus with 5 samples.

Results

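Ly6c2, Ly6c1, Ly6g, Ly6a, Ly6e and Ly6d are the members of the mouse Ly6 surface antigen family described here. They were found by gene symbol, and all 6 were present among the 31053 genes counted in each library. The data are 5 single-cell RNA libraries of BALB/c bone marrow (BM). Whole BM, labelled CD45+, came from naive mice and from mice given 1 intraperitoneal injection of the alkylating agent cyclophosphamide (CTX), at 150 mg/kg in PBS. Marrow was taken on day 2 (D2 CTX) or day 7 (D7 CTX), with live cells of 3 mice mixed in equal numbers for each library. CD11b+Ly6Chi monocytes were sorted from BM of naive and of CTX-treated mice. The label of the treated sorted library gives no day, and no number of mice is stated for the sorted libraries. Naive mice were untreated, no transgene is labelled, and the age of the mice is not in the labels. Ly6C protein was itself a criterion of the sort, so the difference in Ly6c transcript between sorted and whole BM was set by the design and is not a result.

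Ly6 proteins are small surface proteins that fold into finger-like loops held together by disulfide bonds, and most are tethered to the membrane by a lipid (GPI) anchor. In mouse BM they are used as markers rather than known for a single function: Ly6C marks inflammatory monocytes and is shared by several other leukocytes, while Ly6G marks the neutrophil lineage, and the Gr-1 antibody binds both. Ly6a encodes Sca-1, used to sort stem cells, of which BALB/c mice carry a low-expressing haplotype. Ly6e is broadly expressed and inducible by interferon, and Ly6d marks commitment to the B lineage and a lymphoid-derived subset of plasmacytoid dendritic cells (pDCs).

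The 6 genes lie within 397071 bases of chromosome 15 (GRCm38). Ly6d (chr15:74762056-74763620, minus strand) and Ly6e (chr15:74955051-74959905, plus strand) come first, followed by Ly6a (chr15:74994877-74998031, minus strand). Ly6c1 (chr15:75044018-75048830) and Ly6c2 (chr15:75108158-75111970) both lie on the minus strand, with start coordinates 64140 bases apart, and Ly6g (chr15:75155240-75159126, plus strand) closes the cluster. The Ly6c1 and Ly6c2 transcripts were 97.6% identical over 822 aligned bases. Their coding sequences of 396 bases differed at 9 positions, and the 382 aligned bases of their 3′ UTRs at 7. Because the assay reads the 3′ end of transcripts, the coding part of the last exon (exon 4) is printed from the GENCODE transcripts (release M21), with the 3 differing bases in capitals. They are A254G, C327T and A376G, giving the Ly6c2 base, the coding position counted from 1 at the start codon and the Ly6c1 base. The Ly6c2 stretch spans chr15:75108543-75108751 and the Ly6c1 stretch chr15:75045402-75045610, both of the minus strand.
Ly6c2: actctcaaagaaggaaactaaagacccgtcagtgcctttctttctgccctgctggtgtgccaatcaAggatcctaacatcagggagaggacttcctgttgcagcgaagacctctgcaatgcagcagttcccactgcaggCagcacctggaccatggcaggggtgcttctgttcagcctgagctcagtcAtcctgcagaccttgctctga
Ly6c1: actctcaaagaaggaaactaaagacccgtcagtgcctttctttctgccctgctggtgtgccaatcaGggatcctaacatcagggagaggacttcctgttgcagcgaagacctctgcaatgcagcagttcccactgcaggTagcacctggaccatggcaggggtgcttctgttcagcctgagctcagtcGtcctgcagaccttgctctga
Of the 733 windows of 90 bases in the Ly6c2 transcript, 134 (18.3%) occurred letter for letter in Ly6c1, so a read from one of them cannot be assigned to either gene. No such window was shared between any other pair of members. The Ly6g transcript used holds only its 336 coding bases, so the 3′ UTR of Ly6g was not searched.

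The sequences just upstream of the annotated start are given for the 3 members with an entry in the RefSeq promoter table (GRCm38.p6), to compare the monocyte gene pair with the neutrophil gene. Ly6a, Ly6e and Ly6d had no entry. Capitals mark matches to GAGGAAGT, an element bound by the myeloid factor PU.1, and to TTGCNNAA, a C/EBP element, searched on both strands. The windows span chr15:75111972-75112221 (Ly6c2, minus strand), chr15:75048838-75049087 (Ly6c1, minus strand) and chr15:75155011-75155239 (Ly6g, plus strand).
Ly6c2: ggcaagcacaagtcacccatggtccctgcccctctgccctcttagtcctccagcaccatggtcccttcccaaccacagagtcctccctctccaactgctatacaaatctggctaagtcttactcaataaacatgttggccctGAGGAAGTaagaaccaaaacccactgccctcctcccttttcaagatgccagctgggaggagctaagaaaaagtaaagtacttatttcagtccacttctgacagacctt
Ly6c1: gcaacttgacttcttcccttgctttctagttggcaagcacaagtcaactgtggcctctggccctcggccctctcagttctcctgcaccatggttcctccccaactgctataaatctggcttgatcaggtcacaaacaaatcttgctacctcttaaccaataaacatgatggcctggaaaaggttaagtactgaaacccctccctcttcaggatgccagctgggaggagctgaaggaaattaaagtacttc
Ly6g: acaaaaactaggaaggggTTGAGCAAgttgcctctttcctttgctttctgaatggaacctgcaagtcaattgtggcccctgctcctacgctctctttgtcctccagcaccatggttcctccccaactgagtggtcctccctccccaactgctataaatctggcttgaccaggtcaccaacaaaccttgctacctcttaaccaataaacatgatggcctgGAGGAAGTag
GAGGAAGT was found in the Ly6c2 and Ly6g windows and not in that of Ly6c1, and 2.44% of all 32851 windows held it. TTGCNNAA was found only in the Ly6g window, on its minus strand, among 9.56% of all windows. No window of the 3 held the interferon-stimulated response element or the gamma-activated site (TTCNNNGAA), present in 2.98% and 7.02% of windows. The windows of Ly6c1 and Ly6c2 were 71.9% identical over 228 aligned bases, less than their transcripts.

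The libraries held between 1891 and 8290 cells after filtering and between 22279758 and 67921924 unique molecular identifiers (UMIs), each standing for 1 captured transcript. Cells had a median of 3953.5 (naive), 3033.5 (D2 CTX) and 7189.5 (D7 CTX) UMIs in whole BM and 10299 and 9694 in naive and CTX sorted monocytes. Levels are given in CPM, UMIs of a gene scaled to a total of 1000000 over all cells summed, with exact 95% intervals for ratios that cover counting error only. With 1 pooled library per group no test between conditions was possible, and the spread between mice is unknown. Cells were placed into 19 classes by marker genes that include no Ly6 gene, which placed between 72.3% and 97.7% of cells per library. The monocyte gate took 1784 of 1891 cells of naive sorted and 2333 of 2564 cells of CTX sorted monocytes. Although whole BM is labelled CD45+, 447 naive cells fell into the erythroid gate. Any pair of libraries shared between 2 and 16 cell barcodes.

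In CPM across whole BM, Ly6g was highest at D7 CTX, and Ly6d and Ly6e were highest at D2 CTX and lowest at D7 CTX. The summed Ly6c transcripts stayed within a narrow range in CPM, though less so under the other scalings given below. Ly6g, the neutrophil lineage antigen, was at 533 CPM in naive, 647 CPM in D2 CTX and 1469 CPM in D7 CTX BM. Ly6c1 and Ly6c2 together were at 367, 470 and 406 CPM. Ly6e was at 381, 647 and 253 CPM. These 3 series of values show different orders of the libraries, with Ly6g alone rising to its peak at D7 CTX. Ly6d was at 101, 181 and 23.0 CPM, an order like that of Ly6e with a deeper fall. Ly6a, with between 86 and 639 UMIs per whole BM library, was at 5.38, 18.8 and 1.27 CPM. In sorted naive and CTX monocytes Ly6c1 and Ly6c2 together were at 1662 and 1712 CPM, Ly6e at 855 and 724 CPM, Ly6g at 11.7 and 34.9 CPM, Ly6a at 5.88 and 4.86 CPM and Ly6d at 4.71 and 1.64 CPM. In such sums over a library, fewer cells of a type and less RNA per cell cannot be told apart. The plot of levels per library shows these values gene by gene.

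**Figure D1:**
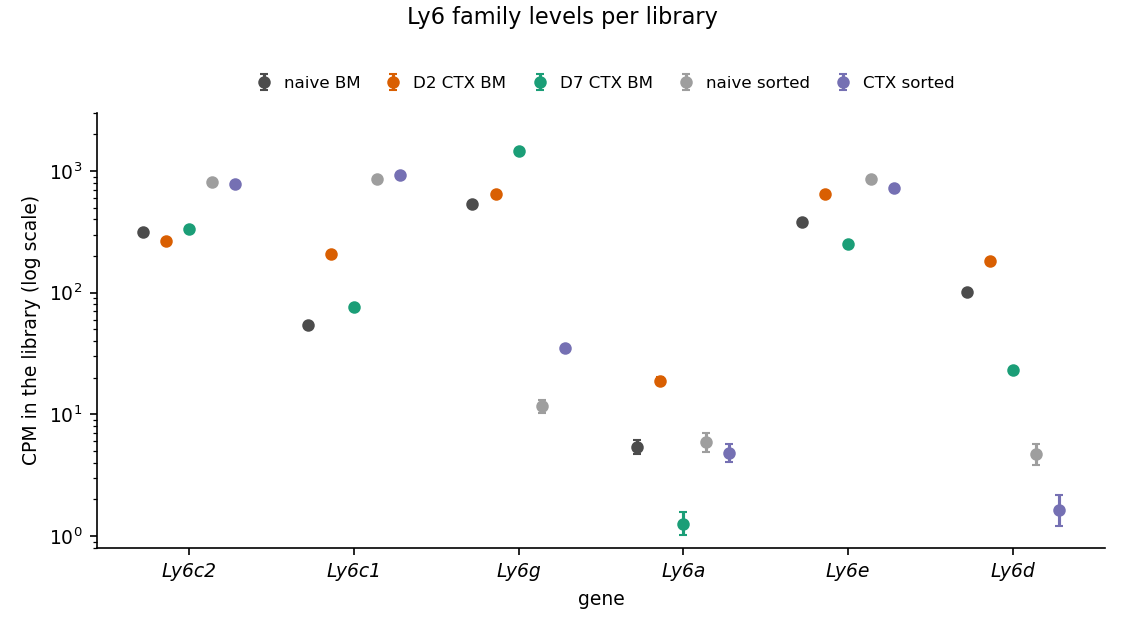
Level of each Ly6 gene in the 5 libraries, in CPM on a log scale; each point is 1 library and bars are exact 95% Poisson intervals. Ly6g at 1469 CPM in D7 CTX BM is the highest of the whole BM points, and Ly6a is the lowest gene in each whole BM library.

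A difference was called when a gene with at least 200 UMIs over both libraries and at least 20 CPM in either one differed by at least 1 log2 unit, with 1 CPM added. Between D2 CTX and naive BM, 1 of 5 members that passed the filter was called higher (Ly6c1) and 0 lower, where 5.4% of all genes were called higher and 3.21% lower. Ly6d had a log2 ratio of 0.84 (0.78 to 0.89) and Ly6e of 0.76 (0.73 to 0.79), both below the threshold, while Ly6a at 1.81 (1.59 to 2.02) was under the filter. Between D7 CTX and naive BM, Ly6g was called higher with a log2 ratio of 1.46 (1.44 to 1.48), where 1.41% of genes were. Ly6d was called lower with a log2 ratio of -2.13 (-2.22 to -2.05), where 22.3% of genes were. Between D7 CTX and D2 CTX BM, Ly6g was called higher (log2 ratio 1.18; background, meaning the share of all genes called in that direction, 1.14%) and Ly6c1, Ly6e and Ly6d were called lower (log2 ratios -1.45, -1.35 and -2.97, background 34.1%). Between the sorted libraries, 1 of 4 members that passed the filter was called higher (Ly6g, log2 ratio 1.58, background 0.144%) and 0 lower (background 0.811%). These comparisons of whole BM share libraries and are not independent.

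The scaling mattered for D7 CTX BM. The median log2 ratio of all tested genes was 0.17 for D2 CTX over naive, -0.58 for D7 CTX over naive, -0.71 for D7 CTX over D2 CTX and 0.03 between the sorted libraries. Read against this shift, Ly6e at D7 CTX lay with the typical gene: its log2 ratio over naive was -0.59 in CPM, -0.15 with the 20 most abundant genes left out of the total and 0.07 with median ratio scaling, so its direction flips. The sum of Ly6c1 and Ly6c2 in D7 CTX over D2 CTX BM flipped as well, from -0.21 to 0.26 and 0.62. In D7 CTX over naive BM the sum went from 0.15 to 0.58 and 0.81. With median ratio scaling, Ly6c1 passed the threshold in D7 CTX over naive BM (1.14), and Ly6c2 in D7 CTX over D2 CTX BM (1.15). The fall of Ly6d and the rise of Ly6g at D7 CTX kept their direction and their call under both scalings. Of the calls in D7 CTX over D2 CTX BM, those of Ly6c1 and Ly6e were lost under both, with log2 ratios of -0.97 and -0.61 for Ly6c1 and -0.88 and -0.52 for Ly6e.

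The most uneven pattern within the family was the division of Ly6c UMIs between the 2 near-identical genes. Taken alone, Ly6c2 was at 313 CPM and Ly6c1 at 53.9 CPM in naive BM, at 264 and 206 CPM in D2 CTX BM and at 330 and 75.7 CPM in D7 CTX BM. Ly6c2 thus took 85.3% of the UMIs of both genes in naive BM, 56.1% at D2 CTX and 81.4% at D7 CTX, and 48.6% and 45.6% in naive and CTX sorted monocytes. Within naive and D7 CTX BM the share was much the same in every cell class. In naive BM it ran from 83.1% in granulocyte-monocyte progenitors (GMPs) to 92.0% in erythroid cells, and the exact 95% intervals of 9 of 9 classes held the library's value. In D7 CTX BM it ran from 80.4% to 83.2% (7 of 7 classes). In D2 CTX BM classes differed more, from 49.2% (45.9 to 52.4) in GMPs to 59.7% (57.9 to 61.5) in pre-neutrophils, and the intervals of 4 of 8 classes held the library's value. In the monocyte gate alone, naive BM and naive sorted monocytes, both from untreated mice, had Ly6c1 shares of 15.3% and 51.4%. The division thus differed between libraries of untreated cells of 1 class. In both sorted libraries the intervals of 4 of 4 classes held the library's value.

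**Figure D2:**
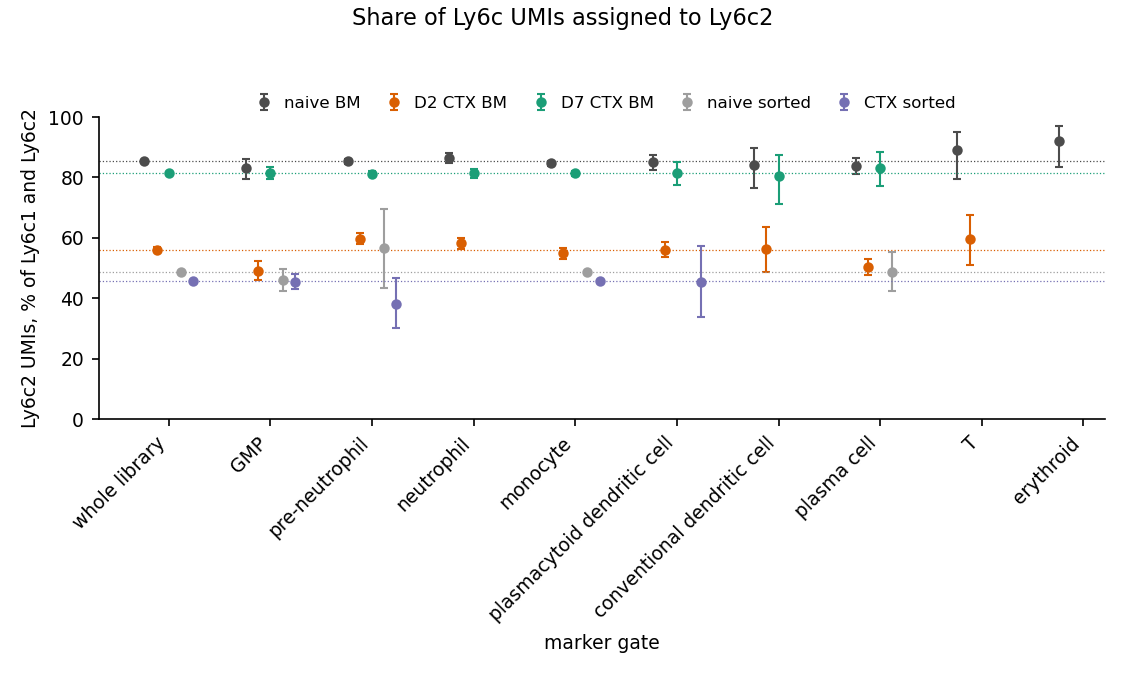
Ly6c2 UMIs as a percent of Ly6c1 and Ly6c2 UMIs, in the whole library and in each marker gate with enough UMIs; points are 1 class of 1 library, bars exact 95% binomial intervals, and dotted lines the value of the whole library. In naive BM (85.3%) and D7 CTX BM (81.4%) the intervals of all classes shown hold the library's line, and in D2 CTX BM (56.1%) those of 4 of 8 do.

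Other pairs of genes with shared 3′ sequence were set beside this one. There were 26 pairs with at least 10 shared windows in their last 400 bases. For each, the share of the first-named gene in the monocyte gate was compared over the 5 libraries. It moved by 39.0 percentage points in Ly6c1 and Ly6c2 and by a median of 2.04 in the other 25 pairs. Many of the 25 lay near an end of the scale in every library, such as Rps12 with Rps12-ps3 (99.1% to 99.5%). Such pairs had little room to move, so this median does not show how unusual 39.0 points is. Pairs nearer the middle included Tpm3 with Tpm3-rs7 (16.8 points) and Slfn8 with Slfn9 (10.9 points). Of these 25 pairs, 2 moved by over 20 points. The pair given here, named after its values were seen, was Gm10260 with Gm11361 (42.0 points). Gm10260 stood at 53.0%, 90.3% and 59.2% in the monocytes of naive, D2 CTX and D7 CTX BM and at 94.9% and 93.8% in those of the naive and CTX sorted libraries. In it, as in Ly6c1 and Ly6c2, the D2 CTX value lay nearer to those of the sorted libraries than to those of the other whole BM libraries. Read length and counting settings per library are not given in the sources used here, and their part in the division was not tested. Ly6c1 and Ly6c2 are therefore reported as a sum, and single calls on Ly6c1 are uncertain: with the sum, 0 members were called between D2 CTX and naive BM. Taken alone, Ly6c1 was called higher at D2 CTX than in naive BM in GMPs, pre-neutrophils, neutrophils, monocytes and pDCs, with backgrounds of 7.86%, 3.41%, 3.73%, 2.53% and 1.41%, and lower at D7 CTX than at D2 CTX in the same 5 classes, with backgrounds of 17.5%, 12%, 21.2%, 3.59% and 1.35%. The sum was called in none of these 10 comparisons.

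Summed Ly6c transcript was high in monocytes of every library, though not in them alone, and its level in the monocyte gate differed by less than 1 log2 unit after CTX. The monocyte gate was at 1546 CPM in naive (512 cells), 1280 CPM in D2 CTX (164 cells) and 1419 CPM in D7 CTX BM (714 cells). Log2 ratios over naive were -0.27 (-0.34 to -0.21) at D2 CTX and -0.12 at D7 CTX. Ly6c UMIs were found in 93.8%, 87.8% and 96.9% of these cells, and in 98.7% of gated monocytes of both sorted libraries, where the level was 1686 and 1759 CPM. Thinned to 2000 UMIs per cell, the shares in whole BM were 87.6%, 70.8% and 87.7%, lowest at D2 CTX. In sorted monocytes the log2 ratio of CTX over naive was 0.06 within the monocyte gate.

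Monocytes did not hold the highest Ly6c level throughout. Plasma cells, which secrete antibody, had 1471 CPM in naive (40 cells), 1602 CPM in D2 CTX (51 cells) and 715 CPM in D7 CTX BM (17 cells). pDCs, the main producers of type I interferon, had 1075, 1448 and 808 CPM. At D2 CTX both classes thus lay above the monocytes, and at D7 CTX both lay below them. Ly6c was lower along the neutrophil lineage, with 505, 595 and 397 CPM in neutrophils, 429, 472 and 280 CPM in pre-neutrophils and 296, 454 and 331 CPM in GMPs. Pre-neutrophils at D7 CTX were lower than naive ones by a log2 ratio of -0.62 (-0.66 to -0.57). In all 3 whole BM libraries, cycling pre-neutrophils had less Ly6c than the rest of the class: 310 against 475 CPM in naive, 400 against 526 CPM in D2 CTX and 181 against 311 CPM in D7 CTX BM. T cells, of which a memory subset carries Ly6C, had 182 and 163 CPM in naive and D2 CTX BM. Immature and mature B cells had 9.95 and 12.9 CPM and pro-B and pre-B cells 8.15, 18.9 and 7.34 CPM, among the lowest classes, with erythroid cells at 9.30 CPM in naive and Kit progenitors at 1.32 CPM in D2 CTX BM. Nonclassical monocytes, known for low Ly6C, had 66.3 and 54.5 CPM, on only 13 and 31 cells.

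**Figure D3:**
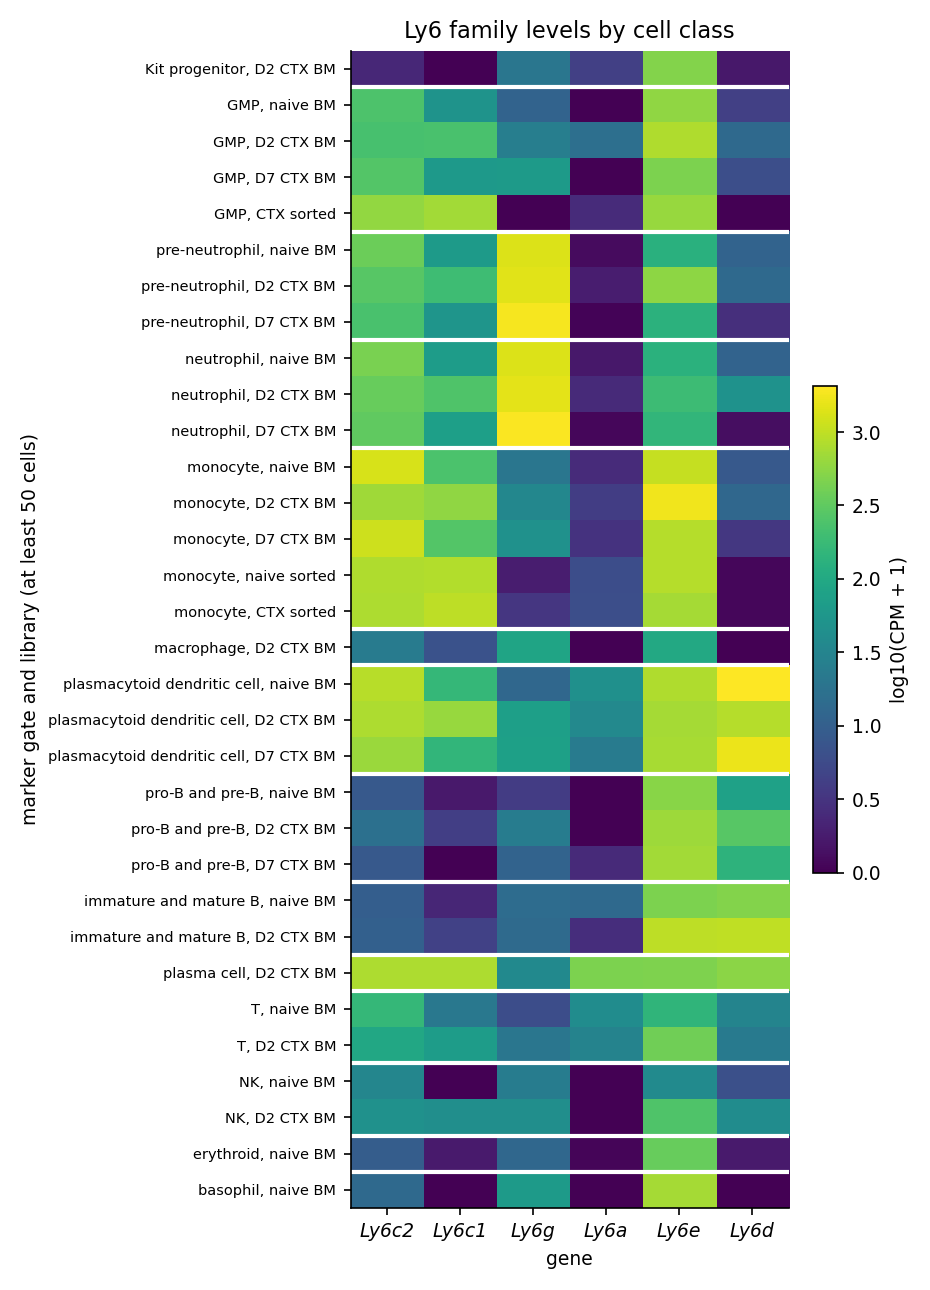
Heat map of each member's level, as log10(CPM + 1), in every marker gate and library with at least 50 cells; rows are gates and libraries, columns are genes, and white lines part the gates. Ly6g is highest in pre-neutrophils and neutrophils, Ly6d in pDCs, B lineage and plasma cells, and Ly6e is spread over most rows.

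Ly6g was carried by the neutrophil lineage, and its rise at D7 CTX was seen in its level per class as well as in the size of the classes. Pre-neutrophils, a class of granulocyte precursors, had 1391 CPM in naive, 1451 CPM in D2 CTX and 1833 CPM in D7 CTX BM. Most were not scored as cycling: 258, 154 and 736 cells of the class were. Neutrophils had 1363, 1518 and 1979 CPM. Log2 ratios of D7 CTX over naive were 0.40 and 0.54, each below the threshold, while the library as a whole differed 2.76-fold. The count of gated pre-neutrophils was 1580, 554 and 4305, and they held 67.8%, 39.6% and 74.1% of all Ly6g UMIs. Composition here means each class's share of the library's UMIs, with cells in no gate as 1 class. With the naive levels per class and the D7 CTX composition the library would stand at 994 CPM. With the D7 CTX levels and the naive composition it would stand at 972 CPM. Both lie between the measured 533 and 1469 CPM. In each whole BM library cycling pre-neutrophils had less Ly6g than the rest: 826 against 1614 CPM in naive, 1142 against 1681 CPM in D2 CTX and 1069 against 2079 CPM in D7 CTX BM.

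Low Ly6g counts appeared in cells placed outside the neutrophil gates. Gated monocytes had 19.0, 33.1 and 47.2 CPM, called higher at D7 CTX than in naive BM (log2 ratio 1.31, 0.94 to 1.70), where 0.422% of genes were. The call was lost when each cell counted equally (0.78) and under a stricter gate (0.51). Immature and mature B cells, which should lack Ly6g, had 13.7 and 12.9 CPM in naive and D2 CTX BM. After each cell was thinned to 2000 UMIs, 3.25%, 2.48% and 3.57% of monocytes held a Ly6g UMI. The same B cells were at 2.50% and 2.37% in naive and D2 CTX BM. Naive T cells were at 1.03%, naive NK cells at 5.97% and D7 CTX pro-B and pre-B cells at 2.53%. The part of background in the monocyte values was not tested. Without thinning the monocyte shares were 4.49%, 9.15% and 7.56%. GMPs had 10.4, 25 and 62.6 CPM, called higher at D7 CTX than in naive BM (log2 ratio 2.60, 1.93 to 3.35; background 0.976%). They were called higher at D7 CTX than at D2 CTX as well (background 4.52%). pDCs, which should lack Ly6g, were at 11.8, 73.0 and 75.2 CPM. Only at D2 CTX did their interval (57.4 to 91.5) lie clear of that of the GMPs (18.7 to 32.8), above it. Pro-B and pre-B cells, which should lack it too, were at 2.84, 23.6 and 10.3 CPM. Their intervals lay below those of the GMPs in naive and D7 CTX BM and overlapped at D2 CTX. Beyond counting error, classes that should lack Ly6g thus lay above the GMPs at D2 CTX and below them in the other whole BM libraries. The part of background in the GMP levels was not tested. The thinned shares of GMPs were 4.08%, 0% (0 of 51 cells, where 3 cells would make 5.88%) and 5.31%. The 51 GMPs of D2 CTX BM were deep, with a median of 40344 UMIs per cell against 10810.5 in naive and 10066.5 in D7 CTX BM, and the part of this in the values of that class was not tested.

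In the sorted libraries nearly all Ly6g sat in a handful of cells. Cells with specific-granule transcripts numbered 20 in the naive and 55 in the CTX sorted library, at 1374 and 1957 CPM of Ly6g, and held 84.3% and 93.5% of its UMIs. The Ly6c sum in them was 562 and 584 CPM, against 1665 and 1733 CPM in cells that carried neither a granule program nor a cycling or MHC class II program. In those latter cells Ly6g was at 2.34 and 3.12 CPM. Within the monocyte gate Ly6g had 17 and 61 UMIs (0.815 and 2.37 CPM), under the filter, so that 0 members were called there.

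Ly6c and Ly6g transcripts were found together in the neutrophil lineage and rarely in monocytes. At 2000 UMIs per cell, both were held by 53.2%, 61.9% and 39.0% of pre-neutrophils in naive, D2 CTX and D7 CTX BM. Neutrophils with both were 54.9%, 59.5% and 44.2%. These shares cover 835 of 1252, 1048 of 1891 and 1378 of 1477 neutrophils, since shallower cells were left out. They thus describe unlike parts of the class. Pre-neutrophils with Ly6g and no Ly6c UMI made up 32.3%, 29.1% and 48.3%. Of monocytes, 2.84%, 1.86% and 2.85% held both, and 84.8%, 68.9% and 84.9% held Ly6c alone. Sorted monocytes with both were 0.115% and 0.263%. Both classes of the lineage thus held transcripts of both antigens that the Gr-1 antibody binds, and in pre-neutrophils the share with Ly6g alone was highest at D7 CTX.

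Ly6a transcript was scarce, and plasma cells held most of it. They had 295 CPM in naive, 461 CPM in D2 CTX and 205 CPM in D7 CTX BM, and 62.9%, 68.2% and 61.6% of all Ly6a UMIs on only 40, 51 and 17 cells. A Ly6a UMI was found in 50%, 58.8% and 35.3% of them. The markers of the gate summed to 33976, 45389 and 47223 CPM in it, and the pDC markers to 217, 209 and 209 CPM. Cells were placed by these same markers, so the sums do not check what the cells are. The log2 ratio of D2 CTX over naive plasma cells was 0.65 (0.38 to 0.92). pDCs followed with 44.6, 35 and 23.1 CPM and T cells with 40 and 29.1 CPM. Sca-1 is known as a stem cell marker, but Kit progenitors had a Ly6a UMI in 0 of 49 naive and 0 of 26 D7 CTX cells, where 3 cells with a UMI would make 6.12% and 11.5%, and had 3.30 CPM in 64 D2 CTX cells. GMPs had Ly6a UMIs in 6 of 51 D2 CTX cells (15.4 CPM), in 0 of 164 naive and in 0 of 428 D7 CTX cells, where 3 cells with a UMI would make 1.83% and 0.701%. The D2 CTX cells were the deeper ones, as given above for Ly6g, and such counts of 0 limit cells with a UMI, not cells that express the gene. Sorted monocytes had 5.08 and 5.17 CPM, with a UMI in 5.38% and 4.97% of cells, so that Ly6a was detectable. Over the whole sorted libraries the log2 ratio of CTX over naive was -0.28 (-0.63 to 0.08), within counting error.

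Ly6e was the most widespread member and was higher at D2 CTX in most classes. Monocytes had the highest level of the large classes, with 1066 CPM in naive, 1734 CPM in D2 CTX and 869 CPM in D7 CTX BM, and 869 and 738 CPM in the naive and CTX sorted monocyte gate. In pre-neutrophils, Ly6e was at 125, 557 and 135 CPM, a D2 CTX level 4.46-fold that of naive (log2 ratio 2.16, 2.07 to 2.25; background 3.41%). A Ly6e UMI was found in 40.9%, 68.4% and 50% of pre-neutrophils, and in 16%, 44.1% and 18.4% of them at 2000 UMIs per cell. Pre-neutrophils thus held the widest change of Ly6e among the called classes, back near the naive level at D7 CTX. Both cycling and other pre-neutrophils carried it: 178 and 104 CPM in naive, 742 and 420 CPM in D2 CTX, and 208 and 112 CPM in D7 CTX BM.

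Lymphoid classes also had more Ly6e at D2 CTX. Immature and mature B cells were at 455 CPM in naive and 977 CPM in D2 CTX BM (log2 ratio 1.10, 0.94 to 1.27; background 1.57%), a call lost with a looser gate (0.91). T cells were at 147 and 397 CPM (log2 ratio 1.43, 1.03 to 1.85; background 2.63%), and NK cells at 37.7 and 248 CPM, under the filter. The remaining classes differed by less than 1 log2 unit: neutrophils by 0.55, GMPs by 0.49, monocytes by 0.70, pro-B and pre-B cells by 0.36 and pDCs by -0.18. Among classes with at least 50 cells in both libraries, pDCs alone had a D2 CTX level (727 CPM) below the naive level (821 CPM). With D2 CTX levels per class and the naive composition, whole BM would stand at 694 CPM, and with naive levels and the D2 CTX composition at 377 CPM, against measured 381 and 647 CPM in naive and D2 CTX BM. Between D7 CTX and D2 CTX, Ly6e was called lower in pre-neutrophils, where 12% of genes were.

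**Figure D4:**
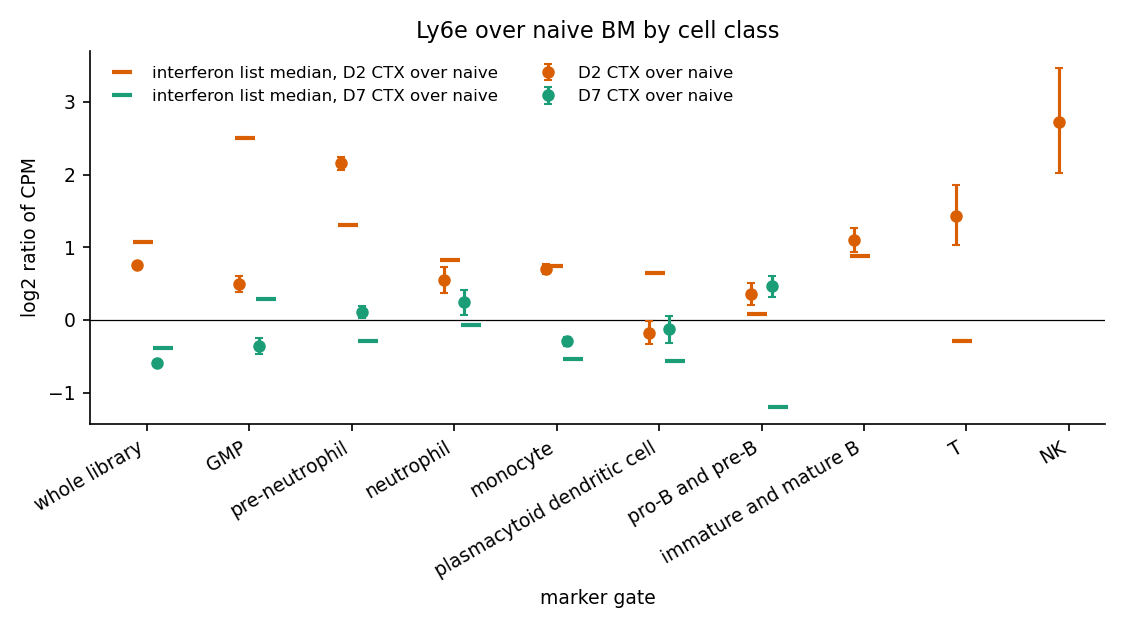
Log2 ratio of Ly6e over naive BM in the whole library and in each marker gate with at least 50 cells in both libraries; circles are Ly6e with exact 95% intervals for counting error, and dashes the median of the tested interferon-induced genes. The D2 CTX circles lie above 0 in every gate shown except pDCs (-0.18), and are farthest from 0 in NK cells (2.72, on few UMIs) and pre-neutrophils (2.16).

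Because Ly6e is known as interferon-inducible, a list of 15 interferon-induced genes was set beside it. Between D2 CTX and naive BM, 7 of 10 tested list genes were called higher and their median log2 ratio was 1.07, against 0.17 over all tested genes. The 3 most abundant were Ifitm3, Ifi27l2a and Bst2, an antiviral tether. Ifitm3, which blocks virus entry, was at 654, 731 and 983 CPM in naive, D2 CTX and D7 CTX BM. Ifi27l2a was at 290, 631 and 145 CPM and Bst2 at 89.5, 165 and 46.9 CPM, the same order as Ly6e. In pre-neutrophils 4 of 6 tested list genes were called higher at D2 CTX, where 3.41% of all genes were, and their median was 1.31 against 0.25 over all genes. In GMPs 3 of 3 were called (background 7.86%, median 2.51 against 0.25), in neutrophils 3 of 8 (3.73%, 0.83 against 0.34) and in monocytes 2 of 9 (2.53%, 0.74 against 0.03). The list and Ly6e did not move alike in every class. In pDCs 1 of 4 was called (1.41%, median 0.64 against -0.01), while Ly6e was at -0.18. In T cells 0 of 2 were called (median -0.29) and in immature and mature B cells 0 of 2 (median 0.89), although Ly6e was called in both. At D7 CTX 0 of 6 were called higher over naive and the median was -0.39, against -0.58 over all tested genes. Between the sorted libraries 0 of 9 were called higher and 1 lower (median -0.56 against 0.03).

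Ly6d was highest in pDCs in naive and D7 CTX BM, and between naive and D2 CTX BM it moved in opposite directions in pDCs and in the B lineage. pDCs had 2059 CPM in naive (122 cells), 883 CPM in D2 CTX (161 cells) and 1665 CPM in D7 CTX BM (85 cells). At D2 CTX this was a log2 ratio of -1.22 (-1.34 to -1.10) to naive pDCs, called lower where 0.403% of genes were, and at D7 CTX of -0.31. Under a stricter gate the first ratio was -0.76. pDCs held 33.7%, 14.8% and 55.2% of all Ly6d UMIs. Immature and mature B cells had 494 CPM in naive and 996 CPM in D2 CTX BM, called higher (log2 ratio 1.01, 0.85 to 1.17), with a UMI in 40.3% and 66.1% of cells. That call was lost with a looser gate (0.59). At D7 CTX 6 cells remained in this gate.

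Pro-B and pre-B cells, which rearrange the immunoglobulin genes, had 78.7, 286 and 137 CPM of Ly6d. The log2 ratio of D2 CTX over naive was 1.86 (1.57 to 2.15; background 7.72%), and it was 0.26 under a stricter gate. D7 CTX over D2 CTX was called lower (log2 ratio -1.06, background 13.8%), and was 1.72 under the stricter gate. Cycling cells of this class had less Ly6d than the rest, with 31.4 against 125 CPM in naive and 48.7 against 255 CPM in D7 CTX BM. In D2 CTX BM 1 of 186 cells was cycling, against 96 of 457 in naive BM, and the part of this in the ratio was not tested. Plasma cells had 425, 541 and 588 CPM. Neutrophils were called higher at D2 CTX (10.2 and 47.2 CPM, background 3.73%). In the same library T cells were at 21.3 CPM, NK cells at 39.7 CPM and basophils, on only 36 cells, at 49.8 CPM. Pre-neutrophils and GMPs were at 12.5 CPM, monocytes at 11.8 CPM and Kit progenitors at 0.659 CPM. Classes that should lack the gene thus differed widely, and the part of background in the neutrophil level was not tested. The fall of Ly6d in neutrophils from D2 CTX to D7 CTX was called too (background 21.2%), at these same low levels. In sorted monocytes Ly6d was at 0.144 and 0.155 CPM. Cells in no gate held 42.7%, 36.4% and 20.9% of all Ly6d UMIs and are not described by these classes.

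Composition and levels per class entered the library values of Ly6d in different measure. With the naive levels and the D2 CTX composition the library would stand at 163 CPM, and with D2 CTX levels and naive composition at 119 CPM, against measured 101 and 181 CPM. For D7 CTX the same values were 50.4 and 62.3 CPM, against a measured 23.0 CPM. The value of 62.3 CPM rests in part on D7 CTX levels from only 6 immature and mature B cells. B lineage cells were few at D7 CTX, with 91 pro-B and pre-B cells against 457 in naive BM.

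Within pDCs Ly6d was split between cells without it and cells with much of it. In naive BM 63 of 122 pDCs had no Ly6d UMI, 17 had 1 or 2 and 42 had at least 3. In D2 CTX BM these were 101, 19 and 41 of 161, and in D7 CTX BM 34, 9 and 42 of 85. Cells with at least 3 UMIs held 98.6%, 96.9% and 98.7% of the class's Ly6d. Such cells made up 34.4%, 25.5% and 49.4% of the class. Their median Ly6d level was 24.0, 15.2 and 27.9 UMIs per 10000 UMIs of the cell, so at D2 CTX both their share and their level were lowest. Median UMIs per cell were 6337, 6021 and 5948 in cells with at least 3 Ly6d UMIs and 5592, 5884 and 5985.5 in cells without any. Medians do not show the deepest cells, which a split on UMIs per cell favours. The part of depth in this split was not tested.

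**Figure D5:**
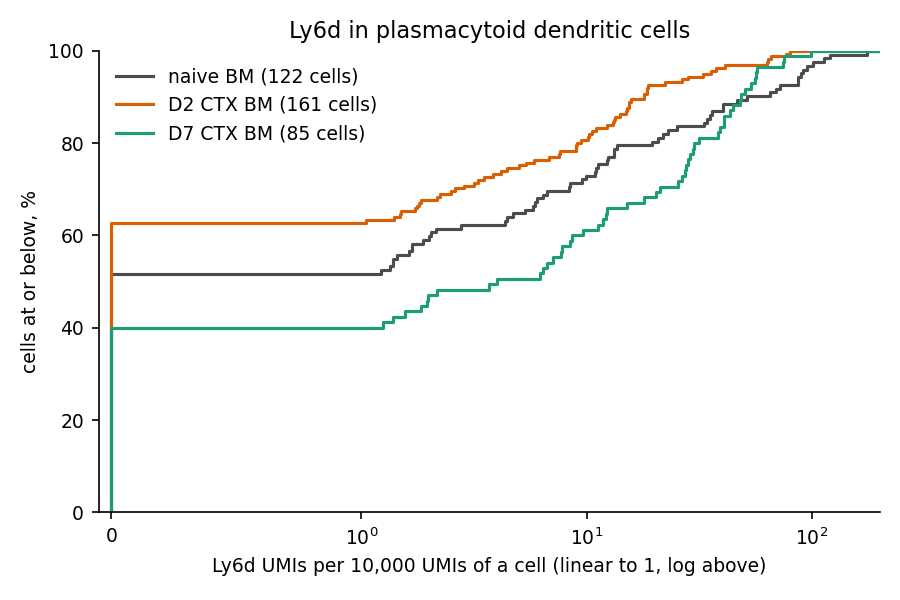
Cumulative percent of pDCs, on the y axis, at or below a given number of Ly6d UMIs per 10,000 UMIs of the cell, on the x axis (linear to 1, log above), with 1 line per whole BM library. The lines leave the y axis at different heights, D2 CTX above naive and naive above D7 CTX, since 101 of 161, 63 of 122 and 34 of 85 cells had no Ly6d UMI.

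The pDCs on either side of this split differed in other genes in all 3 whole BM libraries. The split was made after the values were seen and carries no test, and cells of a library share their source. All 6 cycling genes examined were higher in pDCs with at least 3 Ly6d UMIs, and their sum was 1947 against 25.8 CPM in naive, 2073 against 26.3 CPM in D2 CTX and 1253 against 59.2 CPM in D7 CTX BM. Top2a, the topoisomerase of dividing cells, was at 543 against 5.73 CPM, 746 against 10.5 CPM and 486 against 29.6 CPM. Cells scored as cycling numbered 6 of 42, 6 of 41 and 6 of 42 among pDCs with at least 3 Ly6d UMIs, and 0 of 63, 0 of 101 and 0 of 34 among those without any. The pDCs with 1 or 2 Ly6d UMIs were not examined. Among the cells compared, the cycling signal came from the side with at least 3 in each library. Ly6e followed the same side, with 1398 against 338 CPM in naive (log2 ratio 2.05, 1.75 to 2.35), 1338 against 406 CPM in D2 CTX and 1162 against 296 CPM in D7 CTX BM. The sum of Ly6c1 and Ly6c2 did not follow it, with 1023 against 1045 CPM, 1086 against 1631 CPM and 862 against 745 CPM. Antigen presentation went the other way in naive and D2 CTX BM: 4 MHC class II genes summed to 2052 against 5482 CPM and 1578 against 3780 CPM, with the intervals of 4 of 4 genes below 0. In D7 CTX BM the sums were 2327 and 2468 CPM, with 0 of 4. Ccr2, a chemokine receptor for leaving the marrow, was at 60.3 against 504 CPM, 82.0 against 376 CPM and 159 against 415 CPM. The 6 pDC markers of the gate were present on both sides, with sums of 7979 and 10105 CPM in naive, 9116 and 11784 CPM in D2 CTX and 8067 and 8742 CPM in D7 CTX BM. In naive and D2 CTX BM the interval of 1 of 6 lay above 0 and of 4 below, and in D7 CTX BM of 1 above and 2 below. Siglech, a pDC receptor, was at 2026 against 2891 CPM in naive BM and Klk1 at 594 against 1411 CPM, while Cox6a2 was at 2115 against 1471 CPM.

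The genes with a pattern most like each member were sought over the 29 groups of class and whole BM library with at least 50 cells, among 10106 genes, by Pearson's r of log2(CPM + 10). The groups share libraries and depth, and the values are a description. Ly6g was closest to Chil1 (0.977), Lcn2 (0.968) and Ankrd22 (0.959), of which Lcn2 encodes a granule protein that binds siderophores. Ly6d was closest to Iglc3 (0.938), an immunoglobulin light chain, Cacna1e (0.931) and Rnf122 (0.928), and Ly6a to Epcam (0.885), Hid1 (0.865) and Ccr10 (0.850). Ly6e had no close match, with Man2c1 at 0.742, Hmg20b at 0.724 and Cbfa2t3 at 0.721. Ly6c2 was closest to Ly6c1 (0.918), Zfp467 (0.784) and I830077J02Rik (0.773), and Ly6c1, after Ly6c2, to Slpi (0.808) and Zfp467 (0.758). The value for the Ly6c genes includes reads that their shared sequence may have placed in either.

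Of 34 other genes of the wider Ly6 and uPAR family, 32 were among the genes counted, 26 had fewer than 200 UMIs over the 5 libraries and 9 had none. The other 6 are named here. Cd177, a neutrophil surface protein, was at 291, 380 and 561 CPM in naive, D2 CTX and D7 CTX BM, the same order of libraries as Ly6g. Plaur, the urokinase receptor, was at 79.2, 96.1 and 137 CPM. Cd59a, which protects cells from complement, was at 37.8, 2.15 and 0.957 CPM and Cd59b at 5.62, 0.619 and 0.206 CPM. Both were highest in naive BM, which also held the most cells in the erythroid gate (447, against 46 and 20). Ly6g5b was at 4.60, 5.51 and 7.79 CPM and Lynx1 at 1.69, 4.66 and 0.339 CPM. Over naive, 0 of 3 tested were called higher and 1 lower at D2 CTX, where 3.21% of all genes were called lower, and at D7 CTX, where 22.3% were.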

How the data were processed

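Live cells of naive, D2 CTX and D7 CTX BM and sorted CD11b+Ly6Chi monocytes were run with 10x 3′ V3 reagents on a NovaSeq, with 1 library per group. The authors deposited raw counts of UMIs per gene and barcode, made with Cell Ranger 3.1 against mm10 per the submitters' processing notes, which also name Seurat 5.0. The gene annotation release, read length and counting options are not given in the sources used here. No normalization had been applied.

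Cells with at least 200 genes and under 20% mitochondrial UMIs were kept. For each of 19 cell classes the mean log2(1 + UMIs per 10000) of its markers was divided by the mean of the 30 highest cells. A cell entered the class of its highest relative score if that was at least 0.4, at least 2 markers were detected and the next class was exceeded 1.2-fold. No Ly6 gene placed cells. Between 8 and 585 cells per library lay near the score limit. Members, gene lists and motifs were chosen with earlier results of these data known, and the gate limits after marker distributions were seen. Standardised values combine the class levels of 1 library with each class's share of UMIs in another. Cells in no gate entered as a class of their own. No minimum of cells per class was set, so classes as small as the 6 immature and mature B cells of D7 CTX BM entered. No doublet caller was run, and 1 alternative left out the 2% of cells with the most UMIs. Counts were summed per class and library. CPM have exact Poisson, shares exact Clopper-Pearson and ratios exact conditional intervals at 95%. Beside shares of 0 stands the floor of 3 cells. For shares of cells with a UMI each cell was thinned to 2000 UMIs, leaving out shallower cells, or to 1000 as an alternative.

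All 6 members were named in each comparison, as were other family genes with at least 200 UMIs over the 5 libraries, the 3 genes most like each member among those with at least 20 CPM in a group, and the 3 most abundant interferon-induced genes. The other alternatives were stricter and absent cell filters, stricter and looser gates, the mean of CPM over cells, a total without the 20 most abundant genes, median ratio scaling, 0.1 CPM added, no filter on low counts, and subtraction of the level in a class that should lack the gene. Windows of 90 bases stood for reads in the search for shared sequence, and 1 gene pair of that search is not reported here. Sequences came from GENCODE M21 and RefSeq GRCm38.p6. The scripts were tested on simulated data and used Python 3.11.15, NumPy 2.4.6, SciPy 1.17.1, pandas 2.3.3, Biopython 1.88 and matplotlib 3.10.9.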

Additional observations from a re-analysis of the deposited data

Results flagged for a closer look

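The difference from naive BM had opposite signs at D2 CTX and D7 CTX for 2 values. Ly6d in the whole library had a log2 ratio of 0.84 at D2 CTX and -2.13 at D7 CTX, and the difference was not tested, since each condition has 1 library and both ratios share the naive library. Ly6c1 in the pre-neutrophil gate had 1.59 and -0.27, and this difference was not tested either. Ly6c1 shares most of its sequence with Ly6c2, and the sum of both in the same gate was 429 CPM in naive, 472 CPM in D2 CTX and 280 CPM in D7 CTX BM.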

How the results depend on the processing

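No paired analysis was possible because each group has 1 library and the labels carry no replicate numbers. For the same reason no library could be left out. Between D2 CTX and naive BM, 2 members were called with the 20 most abundant genes left out of the total (Ly6c1 and Ly6a, main 1) and 0 with Ly6c1 and Ly6c2 counted as 1 gene. Between the sorted libraries, 0 members were called in the monocyte gate only (main 1). Both of these last alternatives were chosen after seeing the data. Within gated classes, 23 calls became 15 with the stricter gate and 13 with Ly6c1 and Ly6c2 counted as 1 gene. In the classes and directions of the 23 calls, between 0.403% and 21.2% of all genes were called. The counts alone therefore do not show whether members were called often. Without a filter on low counts, the genes called among all rose from 536 to 1192 for D2 CTX over naive, from 1329 to 2910 for D7 CTX over naive, from 2106 to 4663 for D7 CTX over D2 CTX and from 53 to 140 between the sorted libraries. Median ratio scaling gave 848 for D7 CTX over naive and 932 for D7 CTX over D2 CTX, and the total without the 20 most abundant genes 1321 for the latter. The percent of called genes that were higher moved with these scalings: from 62.7% to 35.6% with median ratio scaling for D2 CTX over naive, from 5.94% to 37.8% without the 20 most abundant genes and 68.4% with median ratio scaling for D7 CTX over naive, and from 3.23% to 21.3% and 63.9% for D7 CTX over D2 CTX. Ly6d in pro-B and pre-B cells, D7 CTX over D2 CTX, reversed from -1.06 to 1.72 with the stricter gate, and the cause was not tested. Of 92 single ratios of members, 695 alternative values were computed and 682 kept their sign. Of 31 called ratios, 10 fell below the threshold in 13 of 231 alternative values. Without the 2% of cells with the most UMIs, Ly6g in D7 CTX over D2 CTX BM fell to 0.97. Depth limits the shares of cells with a UMI: 86 of 192 groups had at least 10% of cells with a member at 2000 UMIs per cell, and 75 at 1000.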

Other observations

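Ly6d also divided immature and mature B cells, a split made after the values were seen and carrying no test. In naive BM 190 of 318 cells of this gate had no Ly6d UMI, 81 had 1 or 2 and 47 had at least 3, and in D2 CTX BM these were 218, 179 and 247 of 644. The 4 MHC class II genes summed to 10012 CPM in cells with at least 3 Ly6d UMIs against 19334 CPM in cells without any in naive BM, and to 7313 against 12169 CPM in D2 CTX BM. In both libraries the intervals of all 4 genes lay below 0, the same direction as in pDCs of these libraries.

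Over the 29 groups of class and whole BM library, members other than the Ly6c genes were little alike in pattern, with a Pearson's r of 0.55 between Ly6a and Ly6d and of -0.45 between Ly6g and Ly6e, as a description over groups that share libraries. The standardised level of Ly6a, with D2 CTX composition and naive levels, was 12 CPM, and with D2 CTX levels and naive composition 9.26 CPM, against measured 5.38 and 18.8 CPM.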
